A study of Mus musculus with 54 samples.

Results

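The transcripts described here are those encoded by the mitochondrial genome of the mouse, chosen as all genes of the expression table whose symbol begins with mt-. The rule found 18 of 19068 genes. They are both ribosomal RNAs (rRNAs), all 13 protein-coding mRNAs and 3 transfer RNAs (tRNAs), or 48.6% of the 37 genes annotated on that chromosome. All 18 passed the filter on low values, and every gene that the annotation places on chromosome M and that has a line in the table is among them.

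Mitochondria keep a small circular genome of their own, which is copied in many molecules per cell and read as long precursors from both strands. The tRNAs lie between the other genes, and their excision releases the rRNAs and mRNAs. The mRNAs encode core subunits of respiratory chain complexes I, III and IV and of the ATP synthase, whose other subunits are encoded in the nucleus, while complex II is encoded in the nucleus alone. The proximal tubule is rich in mitochondria, since its uptake of sodium, glucose and other solutes is paid for by oxidative phosphorylation.

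RNA came from late proximal tubules, the S3 segment, of male DBA mice aged 14 weeks. The tubules had been cut out by laser as pieces that bound the lectin LTL and lacked SGLT2. The groups were Akita Sglt1 knockout (KO) mice on dapagliflozin, Akita wild-type (WT) mice on semaglutide, Akita WT mice on dapagliflozin, Akita KO and Akita WT mice on vehicle, nondiabetic KO and nondiabetic WT mice on dapagliflozin, and nondiabetic KO and nondiabetic WT mice on vehicle. Akita mice carry 1 mutant allele of the insulin gene Ins2 (Ins2 Akita/+) and model type 1 diabetes, and nondiabetic littermates are Ins2+/+. KO is Sglt1-/- and WT is Sglt1+/+. Dapagliflozin, an inhibitor of the glucose carrier SGLT2, was given at 10 mg per kg of diet, and semaglutide, an agonist of the GLP-1 receptor, at 3 nmol per kg of body weight per day under the skin, both for 2 weeks. Akita WT mice on dapagliflozin and on semaglutide gave 5 analysed libraries each, and each of the other 7 groups gave 6. The replicate numbers used below only name libraries: they were given here in the order of the records, 1 to 6 within a group, and the labels carry none. The labels do not say whether libraries of a group came from separate animals, so the p-values measure the spread between these samples.

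Values are TPM, which is scaled to gene length, so levels of different genes can be compared, save those with a near-identical copy in the nucleus (below). The number of reads is unknown. Slc5a1, which encodes SGLT1, averaged 0.797 ± 0.319 TPM in KO libraries and 69.7 ± 19.9 TPM in WT libraries on vehicle or dapagliflozin (SD, n = 24 and 23). Slc5a2, which encodes SGLT2, had a value in every library, between 3.93 and 205 TPM (median 18.2). Summed markers of the S3 segment ranged over libraries between 3609 and 11037 TPM, against 211 to 2283 TPM for the S1 and S2 segments and 360 to 4650 TPM for the thick ascending limb. In bulk RNA, fewer cells of a type and less RNA per cell cannot be told apart.

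The mitochondrial rRNAs were the most abundant RNAs of the table. The large-subunit rRNA, mt-Rnr2 (chrM:1094-2675, plus strand), averaged 343173 TPM over the 52 libraries and ranged between 179388 and 585784. The small-subunit rRNA, mt-Rnr1 (chrM:70-1024, plus strand), averaged 218891 TPM and varied more, between 60067 and 593256. One or the other was the highest gene of every library, mt-Rnr2 in 46 and mt-Rnr1 in 6. Together they made up 20.3 to 52.3% of a library's TPM (median 34.2%), the mRNAs 1.01 to 4.38% (median 1.86%), and the 3 tRNAs at most 0.0272%.

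In the deposited values of the mRNAs, mt-Co1, the catalytic subunit of complex IV, was highest at 5819 ± 2228 TPM (SD, n = 52 libraries here and for the other mRNAs). Adding the values of the nuclear copies described below changes this order. It exceeded the next gene, mt-Cytb, in 49 of 52 libraries. mt-Cytb, the cytochrome b of complex III, averaged 4467 ± 1965 TPM, and mt-Atp6, a membrane subunit of the ATP synthase, 4345 ± 2525 TPM. These neighbours did not stand apart, since mt-Cytb was above mt-Atp6 in only 32 libraries. Below them came mt-Nd5 (2724 TPM), mt-Co2 (2506 TPM), mt-Nd1 (2131 TPM), mt-Nd4 (1977 TPM) and mt-Atp8 (1966 TPM), each with an SD between 851 and 1429 TPM. The order within this group was loose, with mt-Nd5 above mt-Co2, and mt-Nd4 above mt-Atp8, in 32 libraries each.

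Lower levels were seen for mt-Co3 (1432 TPM), mt-Nd6 (1302 TPM) and mt-Nd2 (1163 TPM), and mt-Co3 was above mt-Nd6 in 28 of 52 libraries, near an even split. mt-Nd6, a complex I subunit, is the one mRNA read from the other strand (chrM:13552-14070, minus strand). The lowest deposited values of an mRNA were those of mt-Nd4l, with 727 ± 635 TPM and 13 libraries at 0, and mt-Nd3, with 23.7 ± 25.1 TPM and 14 libraries at 0. The tRNAs, whose genes are 67 to 69 bases long, averaged 69.6 TPM for mt-Tg (glycine), 29.2 TPM for mt-Tp (proline) and 17.8 TPM for mt-Tv (valine). They had a value in 40, 23 and 25 libraries. Standard libraries are known to hold RNAs this short poorly, and how much tRNA was lost was not tested.

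**Figure D1:**
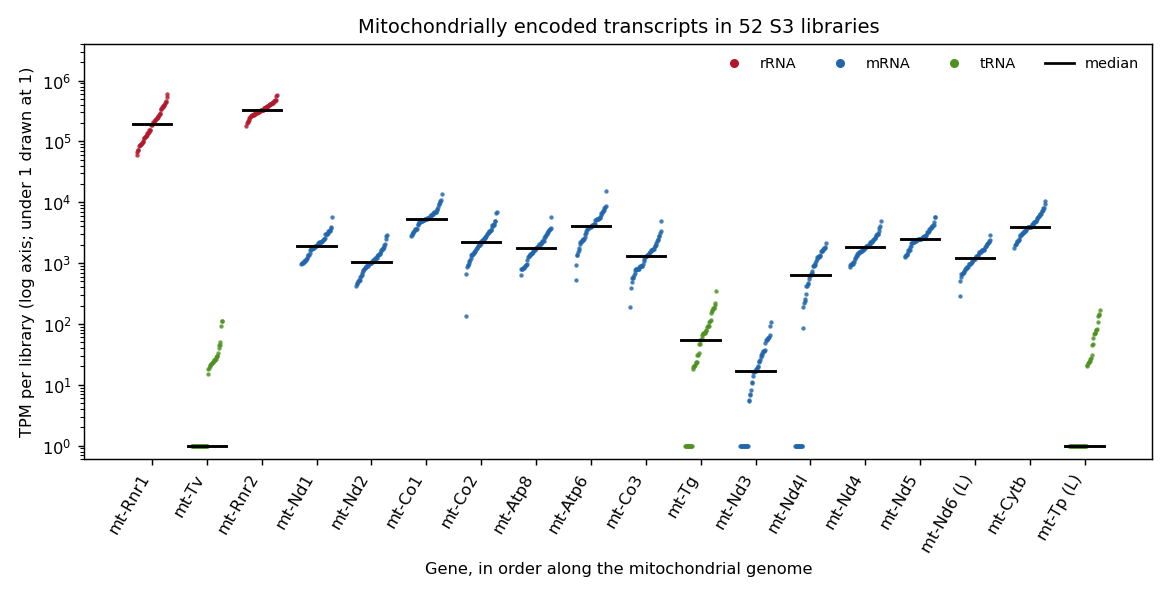
TPM of each mitochondrially encoded gene (log axis) in 52 libraries, each point 1 library and each black line the median, with genes in order along the mitochondrial genome and (L) for genes on the minus strand. The rRNAs lie above all mRNAs in their medians, most mRNAs lie between 1163 and 5819 TPM in their means, and mt-Nd3, mt-Nd4l and the tRNAs hold libraries at 0.

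The 5 mRNAs with the loosest values have a near-complete copy in the nucleus, here meaning one that matches nearly all of the gene with at most 1 differing base. The mouse nuclear genome carries inserted pieces of mitochondrial DNA, and on chromosome 1 of the reference (GRCm38, C57BL/6J) one stretch holds annotated pseudogenes that match consecutive mitochondrial genes. mt-Co2, mt-Atp6, mt-Co3 and mt-Nd4l are identical to Gm28661, Gm10925, Gm28437 and Gm10222 over 681, 678, 783 and 294 bases. mt-Nd3 and Gm28438 share 345 aligned bases with 1 difference. The sequences below come from GENCODE vM21 transcripts and show why these values are uncertain: a read from most of either gene fits both. Capitals mark bases that differ within a pair. The windows run 5′ to 3′ over bases 1 to 60 of mt-Nd3 (chrM:9459-9518, plus strand) and of mt-Nd4l (chrM:9877-9936, plus strand), with the matching bases of Gm28438 (chr1:24613060-24613119, minus strand) and Gm10222 (chr1:24612641-24612700, minus strand).
mt-Nd3: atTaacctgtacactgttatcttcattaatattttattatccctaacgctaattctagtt
Gm28438: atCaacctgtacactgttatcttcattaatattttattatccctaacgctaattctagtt
mt-Nd4l: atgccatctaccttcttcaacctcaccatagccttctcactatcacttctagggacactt
Gm10222: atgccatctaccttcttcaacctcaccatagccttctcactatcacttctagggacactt

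The difference in the first pair is T3C, counted from 1 at the 5′ end of mt-Nd3, with the base of mt-Nd3 first. mt-Nd4l and its copy do not differ in any of the 60 bases shown. A further 2 pairs show a partial and an older copy. Gm29216 matches only the last 483 bases of mt-Co1, with the single difference A1066T, and Gm11410, a pseudogene on chromosome 4, aligns with nearly all of mt-Cytb at 92.9% identity. Gm13340 on chromosome 2 aligns with all of mt-Co1 at 97.6% identity and averaged 1.07 TPM. Gm11408 on chromosome 4 aligns with all of mt-Nd6 at 93.6% identity. Less similar copies such as these are not counted as near-complete. The windows cover bases 1063 to 1122 of mt-Co1 (chrM:6390-6449, plus strand; Gm29216 at chr1:24616129-24616188, minus strand) and bases 543 to 602 of mt-Cytb (chrM:14687-14746, plus strand; Gm11410 at chr4:80004531-80004590, plus strand).
mt-Co1: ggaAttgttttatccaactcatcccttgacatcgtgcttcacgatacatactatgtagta
Gm29216: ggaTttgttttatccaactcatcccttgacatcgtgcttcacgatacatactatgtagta
mt-Cytb: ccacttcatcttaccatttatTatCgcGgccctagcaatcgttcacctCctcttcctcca
Gm11410: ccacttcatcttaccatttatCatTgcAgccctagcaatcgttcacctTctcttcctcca

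In the window of mt-Cytb 4 of 60 bases differ from Gm11410. Over the whole gene, no stretch of 50 bases of mt-Cytb occurs in any nuclear transcript of the annotation. The same holds for mt-Nd1, mt-Atp8, mt-Nd6, mt-Rnr1 and the 3 tRNAs. At the other end, all such stretches of mt-Co2 and 97.99 to 99.9% of those of mt-Nd3, mt-Nd4l, mt-Atp6 and mt-Co3 also occur in a nuclear transcript. mt-Nd4 (62.2%) and mt-Co1 (51.1%) lie between, and mt-Nd2 (8.19%), mt-Nd5 (7.61%) and mt-Rnr2 (1.04%) share little. The mice were DBA, and the reference is another strain, so single bases may differ from those printed.

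The split of values between a member and its copy moved from library to library. In the nondiabetic WT vehicle library with the least mt-Co2 (replicate 4), mt-Co2 had 137 TPM and Gm28661 had 2885 TPM, and mt-Co2 made up 4.54% of the pair, against a median of 64.8% over libraries. In the 13 libraries with mt-Nd4l at 0, Gm10222 had between 1835 and 4619 TPM. In the 14 libraries with mt-Nd3 at 0, Gm28438 had between 155 and 500.1 TPM. Both copies had a value in all 52 libraries.

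For 4 of these genes the pair followed the other mRNAs more closely than either gene of the pair did. Against the log2 sum of the 8 mRNAs without a near-complete copy, the pair of mt-Co2 and Gm28661 had r = 0.96, mt-Co2 alone 0.70 and the copy alone 0.50. For mt-Co3 these were 0.94 for the pair, 0.78 for the gene and 0.04 for the copy. For mt-Nd4l they were 0.90, 0.50 and 0.70, and for mt-Atp6 0.96, 0.89 and 0.69. For mt-Nd3, a median of 3.48% of its pair, r was 0.84 for the pair, 0.43 for the gene and 0.84 for the copy, so the value of the pair was that of its copy. The coefficient of variation of mt-Nd4l over libraries was 37.7% for the pair and 87.3% alone. These correlations are over 52 libraries that share the scale of each library, so they are a description. For mt-Co1, which is one of the 8 and was left out of the sum here, the pair changed little (r = 0.94, against 0.93 alone). mt-Co1 made up 70.9 to 100% of its pair. Levels of mt-Co2, mt-Atp6, mt-Co3, mt-Nd3 and mt-Nd4l are therefore uncertain as values of single genes, and so is their place in the order of the mRNAs. mt-Nd4, also one of the 8, is identical to Gm28439 on chromosome 1 over 876 bases, or 63.6% of the gene. Gm28439 has no values in these data, so this pair could not be summed, and the level of mt-Nd4 is uncertain to that extent. Summed with their copies, mt-Atp6 averaged 7964 TPM, mt-Co1 6284 TPM and mt-Nd4l 3852 TPM, so mt-Atp6 was then above mt-Co1 in its mean.

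**Figure D2:**
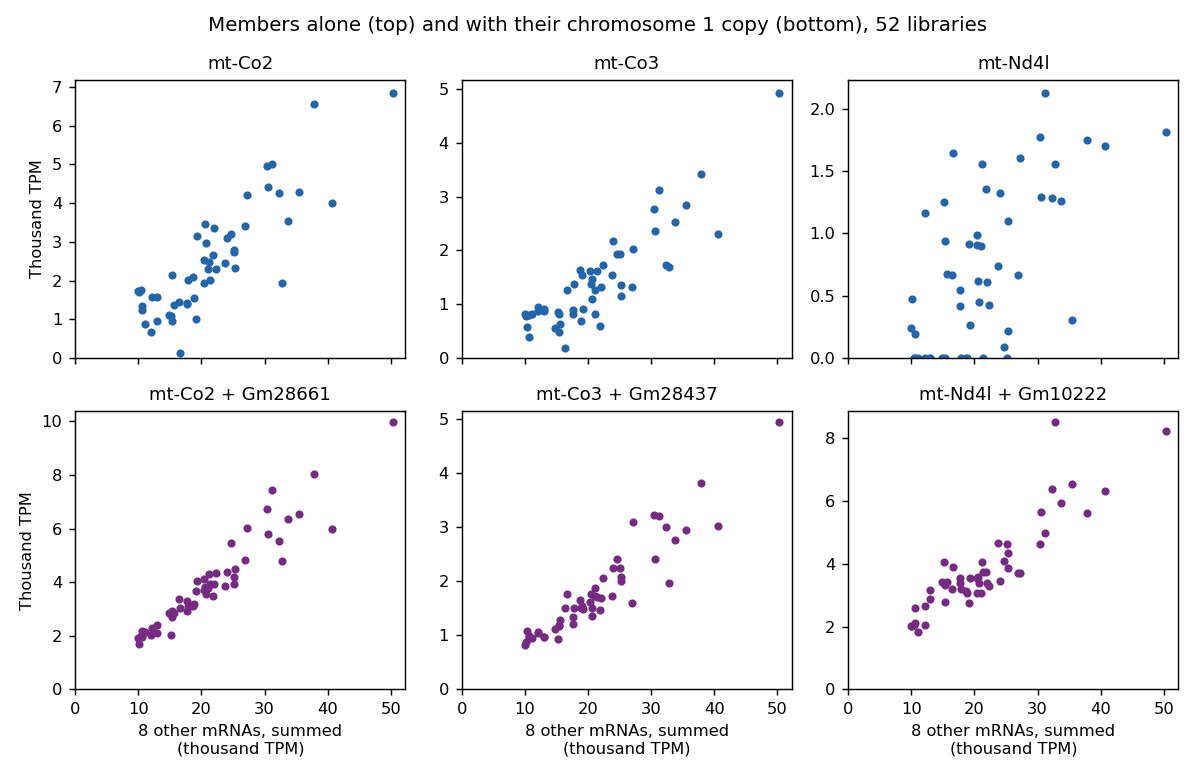
TPM (divided by 1000) of mt-Co2, mt-Co3 and mt-Nd4l in 52 libraries, alone (top) and summed with their copy on chromosome 1 (bottom), against the summed TPM of the 8 mRNAs without a near-complete copy. The points scatter less about a line after summing, with r on the log2 scale of 0.96, 0.94 and 0.90 for the sums and 0.70, 0.78 and 0.50 for the genes alone.

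Most groups overlapped in their summed rRNA, and all groups overlapped in their summed mRNAs. Summed rRNA had group medians of 439866 TPM in Akita KO dapagliflozin, 571059 in Akita WT semaglutide, 646180 in Akita WT dapagliflozin, 571496 in Akita KO vehicle, 697539 in Akita WT vehicle, 449651 in nondiabetic KO dapagliflozin, 792881 in nondiabetic WT dapagliflozin, 435805 in nondiabetic KO vehicle and 494740 in nondiabetic WT vehicle. Single libraries spanned 250541 to 1179040 TPM, and both ends lay in the semaglutide group. The Akita WT vehicle libraries, at 582599 TPM or more, were all above those of Akita KO dapagliflozin (at most 500775 TPM) and of nondiabetic KO vehicle (at most 529343 TPM), while every other pair of groups overlapped. The summed mRNAs had group medians between 21717 TPM (nondiabetic KO vehicle) and 35971 TPM (Akita WT vehicle). Their highest library, at 79196 TPM, was in the Akita KO vehicle group, and the lowest, at 13315 TPM, in the semaglutide group.

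**Figure D3:**
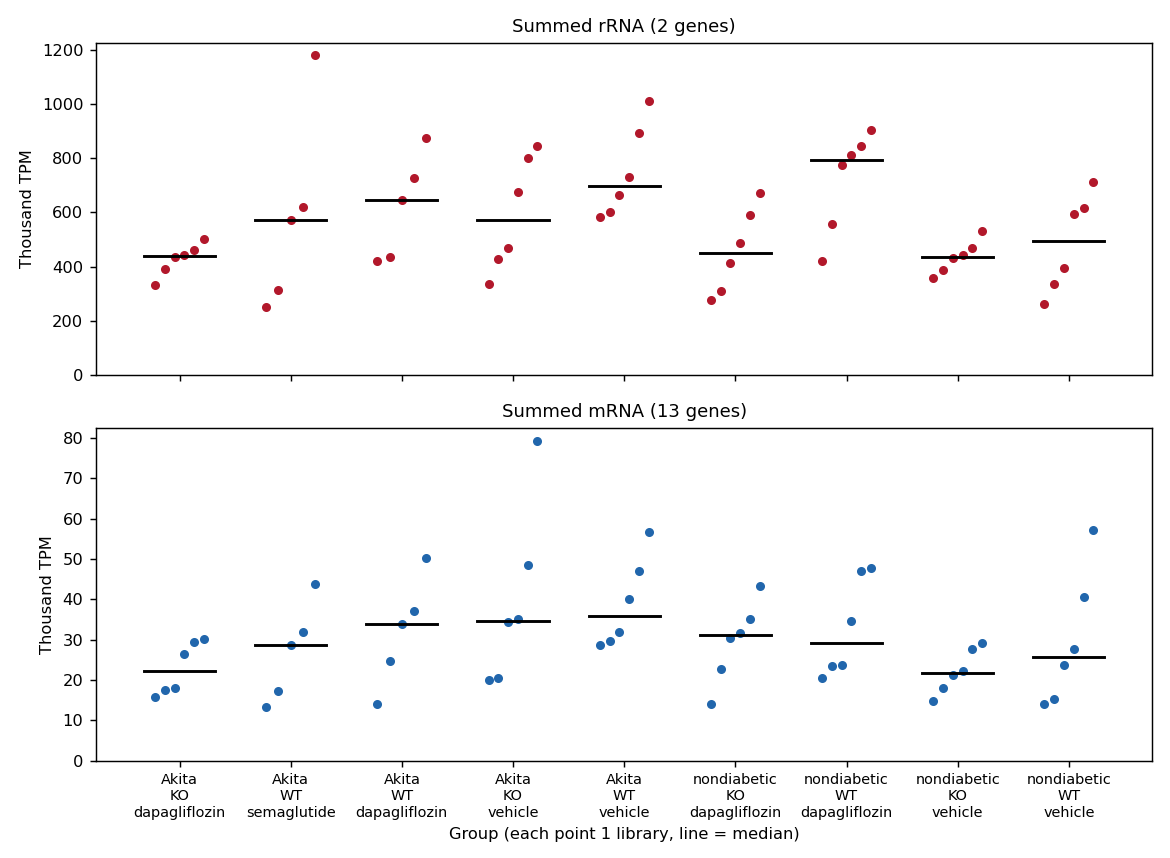
Summed TPM (divided by 1000) of the mitochondrial rRNAs (top) and mRNAs (bottom) by group, each point 1 library and each line the group median (n = 5 for Akita WT semaglutide and Akita WT dapagliflozin, 6 for each other group). In the top panel Akita WT vehicle lies above all libraries of Akita KO dapagliflozin and of nondiabetic KO vehicle and the other pairs of groups overlap, in the bottom panel all groups overlap, and the median mRNA sum is highest in Akita WT vehicle at 35971 TPM and lowest in nondiabetic KO vehicle at 21717 TPM.

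The first comparison asked what type 1 diabetes does to the S3 segment, taking KO and WT mice, and vehicle and dapagliflozin, together with equal weight. No mitochondrially encoded gene passed the threshold. With p-values adjusted by Benjamini-Hochberg over the 15424 tested genes and a threshold of 0.05, limma called 0 of 18, against 0.966% of all tested genes, and 0 at an unadjusted p under 0.05, against 13.4%. The estimated change was above 0 for 17 of 18 genes, with a median of 0.20 on the log2 scale, against 0.03 over all tested genes. With all genes of a library scaled to 1000000, 16 of 18 were above 0, with a median of 0.09 against -0.06 over all genes. mt-Rnr1 had a lowest, median and highest level of 72479, 194141 and 538915 TPM in Akita libraries, against 60067, 146542 and 429336 TPM in nondiabetic libraries. The ranges overlapped almost entirely, and the log2 change of 0.39 (SE 0.23) had an adjusted p of 0.481. mt-Co3, the third subunit of complex IV, had the smallest p of the members, with a log2 change of 0.39 (SE 0.21, adjusted p = 0.426), and averaged 1656 ± 1053 TPM in Akita and 1236 ± 705 TPM in nondiabetic libraries (SD, n = 23 and 24). Summed with its copy Gm28437, its log2 change was 0.31 (SE 0.16).

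In the lists of markers of other cell types limma called 0 genes for diabetes. The estimate was below 0 for 8 of 10 macrophage and dendritic cell markers (median -0.44), all 9 endothelial markers (median -0.19) and all 4 podocyte markers (median -0.35), with 5, 6 and 2 at an unadjusted p under 0.05. It was also below 0 for all 4 thick ascending limb markers (median -0.20), 6 of 8 of the distal tubule and collecting duct (median -0.16) and 8 of 9 of the stroma (median -0.13), with 0, 1 and 2 at an unadjusted p under 0.05. For red blood cells it was below 0 for 1 of 4 markers (median 0.34), with 0 at an unadjusted p under 0.05. A score of other cell types, the mean log2(TPM + 1) of markers of thick ascending limb, distal tubule and collecting duct, endothelium, stroma, macrophages, podocytes and red blood cells, ranged between 3.08 and 4.01 in Akita and between 3.28 and 4.52 in nondiabetic libraries, with medians of 3.506 and 3.502. With this score as a covariate the members' median change was 0.12, and it was also 0.12 without the 3 libraries highest in the score, all nondiabetic on vehicle, a choice made after seeing the data.

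Within WT mice on vehicle the differences were larger and also did not pass. All 18 changes were above 0, with a median of 0.61, against 0.05 over all tested genes, and limma called 0 of 18, against 0.389% of all genes. mt-Rnr1 had a lowest, median and highest level of 188088, 326320 and 538915 TPM in Akita WT vehicle libraries, against 60067, 161735 and 390011 TPM in nondiabetic WT vehicle libraries. All 6 Akita libraries were above the nondiabetic median, and the groups overlapped. The log2 change was 1.06 (SE 0.46, unadjusted p = 0.027, adjusted p = 0.410 by limma). mt-Cytb had 4414, 5362 and 9206 TPM in Akita WT vehicle libraries, against 2042, 3610 and 8171 TPM in nondiabetic WT vehicle libraries, again with all 6 above the nondiabetic median and with overlap. Its log2 change was 0.60 (SE 0.33, adjusted p = 0.545 by limma). With all genes scaled to 1000000 the median of all genes was -0.30 and that of the members 0.20, and mt-Nd5 was then not above 0.

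In the same comparison, 4 genes were at an unadjusted p under 0.05, against 10.2% of all tested genes, namely mt-Rnr1, mt-Rnr2 (0.46, SE 0.22), mt-Co2 (1.18, SE 0.53) and mt-Tp (3.37, SE 1.65). The number of members at that p was 0 with all genes or nuclear genes scaled to 1000000 or with the other-cell score as covariate, and 1 with array weights or with only the 2 groups fitted. Without nondiabetic WT vehicle replicate 4, where mt-Co2 was 4.54% of its pair, the change of mt-Co2 was 0.51. The change of mt-Co2, which encodes the subunit of complex IV that takes electrons from cytochrome c, was 0.65 (SE 0.32) for its sum with Gm28661. The nondiabetic group holds the libraries with the highest score of other cell types in the series, replicates 2 and 1, at 4.52 and 4.49, against 3.17 to 3.76 over the Akita WT vehicle libraries. Summed macrophage and dendritic cell markers ranged between 364 and 483 TPM in Akita WT vehicle libraries, against 446 to 771 TPM in nondiabetic WT vehicle libraries. With the score as a covariate the median change of the 18 genes was 0.44, and 0.46 without the 3 libraries of the series highest in it. Its part in the difference was otherwise not tested. In KO mice on vehicle, 14 of 18 genes were above 0 with a median of 0.65, against 0.01 over all tested genes, and limma called 0 genes of the table. There 6 members were at an unadjusted p under 0.05, against 6.65% of all genes, and mt-Co3 had the smallest adjusted p, 0.588, with 2056 ± 1652 TPM in Akita KO vehicle and 681 ± 346 TPM in nondiabetic KO vehicle libraries (SD, n = 6 each). Replicate 4 of Akita KO vehicle had 4936 TPM. In replicate 5 of nondiabetic KO vehicle, mt-Co3 had 188 TPM and its copy Gm28437 had 1306 TPM. For the sum of mt-Co3 with Gm28437 the log2 change was 0.80 (SE 0.32). Most mRNAs varied together over libraries (below), so the members at an unadjusted p under 0.05 in these comparisons are not separate observations.

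Loss of Sglt1, averaged over diabetes and over vehicle and dapagliflozin, went with lower estimates for most members, none of which passed. limma called 0 of 18, against 0.0519% of all tested genes. The change was below 0 for 15 of 18 genes, with a median of -0.21 against 0.00155 over all tested genes. With all genes scaled to 1000000 the median of all genes moved to 0.19 and that of the members to -0.00416, and mt-Co1, mt-Co2, mt-Nd2, mt-Nd4 and mt-Nd5 were then above 0. The 4 genes at an unadjusted p under 0.05, against 7.22% of all genes, were mt-Co3, both rRNAs and mt-Nd6.

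mt-Rnr2 had a lowest, median and highest level of 210866, 304702 and 425292 TPM in KO libraries, against 202558, 380960 and 564245 TPM in WT libraries. Only 2 of 24 KO libraries were above the WT median, and the ranges overlapped. Its log2 change was -0.29 (SE 0.11, adjusted p = 0.559 by limma). mt-Rnr1 had 67567, 138408 and 438993 TPM in KO libraries, against 60067, 248385 and 538915 TPM in WT libraries, with 4 of 24 KO libraries above the WT median. Its log2 change was -0.61 (SE 0.23, adjusted p = 0.559 by limma). mt-Nd6 had 283, 1106 and 2188 TPM in KO libraries, against 517, 1591 and 2933 TPM in WT libraries, and again 2 of 24 KO libraries exceeded the WT median. Its log2 change was -0.44 (SE 0.18, adjusted p = 0.584 by limma).

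These estimates were not even over the 4 settings. For mt-Rnr2 the change was -0.36 in Akita mice on dapagliflozin, -0.27 in Akita mice on vehicle, -0.56 in nondiabetic mice on dapagliflozin and 0.04 in nondiabetic mice on vehicle. For mt-Nd6 it was -0.41, -0.51, -0.60 and -0.24 in the same settings. Between KO and WT groups of Akita mice on vehicle limma called 0 members, against 0.0259% of all tested genes, and 0 were at an unadjusted p under 0.05, against 3.10%. mt-Co3 had a change of -0.62 (SE 0.21, adjusted p = 0.502 by limma) averaged over the settings, and -0.30 (SE 0.16) for its sum with the copy Gm28437.

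For dapagliflozin, averaged over the 4 backgrounds, the rRNA estimates lay near 0 and those of mt-Tp and mt-Tg were the largest. limma called 0 of 18 members and 0% of all tested genes, and 1 member, mt-Tp, was at an unadjusted p under 0.05, against 4.09% of all genes. mt-Tp, with no value in 29 of 52 libraries, had a change of -1.91 (SE 0.84, adjusted p = 0.999 by limma), mt-Tg of -1.40 (SE 0.75) and mt-Tv of -0.37 (SE 0.74). The 13 mRNAs had changes between -0.76 (mt-Nd4l) and -0.03 (mt-Nd5), with a median of -0.09, and the rRNAs changed by 0.02 (mt-Rnr2, SE 0.11) and -0.03 (mt-Rnr1, SE 0.23). On the deposited scale the average covers estimates of opposite sign. In nondiabetic mice 15 of 18 members (WT) and 13 of 18 (KO) were above 0, with medians of 0.33 and 0.30. In Akita mice 0 of 18 (WT) and 1 of 18 (KO) were above 0, with medians of -0.42 and -0.66.

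The difference between those responses was itself tested. For the interaction of diabetes with dapagliflozin, averaged over genotype, limma called 0 members and 1 gene of the table, or 0.00648%. The estimate was below 0 for 16 of 18 members with a median of -0.85, against -0.00171 over all tested genes. 10 members were at an unadjusted p under 0.05, against 4.51% of all genes, and the smallest adjusted p was 0.979. Most mRNAs varied together over libraries (below), so these 10 are not separate observations. All 13 mRNAs and both rRNAs were below 0, among them mt-Nd2 of complex I (-1.005, SE 0.37), mt-Atp8, a small ATP synthase subunit (-1.04, SE 0.40), and mt-Rnr1 (-1.03, SE 0.47). Expressed the other way round, the members' median change with diabetes was 0.61 (WT) and 0.65 (KO) on vehicle, and -0.14 (WT) and -0.32 (KO) on dapagliflozin. The nuclear lists of the respiratory chain had interaction medians between -0.39 (complex IV) and -0.28 (complex II), also with 0 genes called.

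Semaglutide was compared with vehicle in Akita WT mice. limma called 0 of 18 members and 0% of all tested genes. The change was below 0 for 17 of 18 members with a median of -0.66, against -0.00807 over all genes. With all genes scaled to 1000000, the median of all genes was 0.28 and that of the members -0.33. mt-Rnr1 had 221765, 205049, 593256, 71153 and 87291 TPM in the semaglutide libraries, against a lowest, median and highest level of 188088, 326320 and 538915 TPM in Akita WT vehicle libraries. The values are those of replicates 2 to 6 in order. That of replicate 4 was the highest mt-Rnr1 of the series, and those of replicates 5 and 6 lay below every vehicle library, so the semaglutide group spanned the vehicle group on both sides. The log2 change was -0.85 (SE 0.49, adjusted p = 0.982 by limma), and it was -0.52 without replicate 5 and -1.29 without replicate 4. mt-Cytb had 4734, 4072, 7211, 2029 and 2475 TPM with semaglutide, against 4414, 5362 and 9206 TPM as the lowest, median and highest with vehicle. One of the 5 semaglutide libraries was above the vehicle median, and the log2 change was -0.62 (SE 0.35, adjusted p = 0.974 by limma), or -0.41 without replicate 5.

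The 2 members at an unadjusted p under 0.05, against 5.19% of all genes, were tRNAs, and with only the 2 groups fitted 6 members were at that p. mt-Tg had 20.9, 71.5, 31.1, 0 and 0 TPM with semaglutide, against 46.7, 137 and 352 TPM as the lowest, median and highest with vehicle. None of the semaglutide libraries was above the vehicle median (log2 change -3.93, SE 1.56, adjusted p = 0.862 by limma). The other was mt-Tv, with 20.4 TPM in 1 semaglutide library and 0 in the other 4, against 0, 24.5 and 110 TPM as the lowest, median and highest with vehicle (log2 change -3.64, SE 1.53, adjusted p = 0.915 by limma). Against dapagliflozin in Akita WT mice, semaglutide gave a median member change of -0.25. limma called 0 genes of the table there, and 1 member was at an unadjusted p under 0.05, against 3.52% of all genes. The comparison of semaglutide with vehicle and that of diabetes in WT vehicle mice share the 6 Akita WT vehicle libraries.

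**Figure D4:**
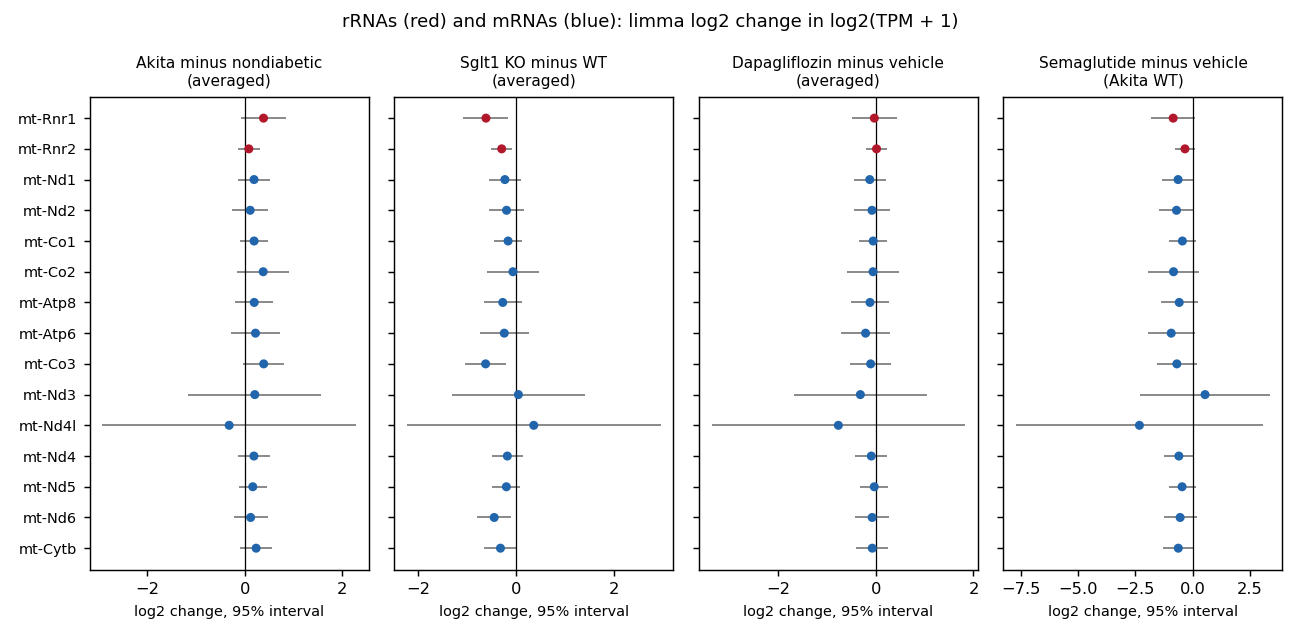
log2 change of log2(TPM + 1) for the rRNAs (red) and mRNAs (blue) in 4 comparisons, with 95% intervals from limma; the horizontal scale differs for semaglutide. No gene passed the threshold, and the widest intervals belong to mt-Nd3 and mt-Nd4l, which hold libraries at 0.

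For the nuclear partners of the mitochondrial genes, too, most estimates on the deposited scale lay on one side of 0 without a called gene. In the averaged diabetes comparison the change was above 0 for all 36 nuclear genes of complex I (median 0.18), all 4 of complex II (0.16), all 9 of complex III (0.16), all 11 of complex IV (0.13) and 15 of 16 of the ATP synthase (0.19). limma called 0 in each list, and 5, 2, 2, 1 and 4 genes were at an unadjusted p under 0.05. In the averaged knockout comparison the change was below 0 for 33 of 36, 4 of 4, 9 of 9, 11 of 11 and 16 of 16 genes, with medians of -0.16, -0.13, -0.21, -0.16 and -0.15, and again 0 called, with 3, 0, 2, 1 and 1 genes at an unadjusted p under 0.05. With semaglutide the medians lay between -0.43 (complex III) and -0.22 (complex II), with 0 called and 1, 0, 2, 0 and 0 genes at an unadjusted p under 0.05. With all genes of every library scaled to the same sum, the median of all tested genes moved from 0.00155 to 0.19 for the knockout. It moved from -0.00807 to 0.28 for semaglutide and from 0.03 to -0.06 for diabetes. The side of 0 on which these lists lay may therefore depend on the scaling, and their medians under that scaling are not given here.

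Genes that read or process mitochondrial RNA were near the middle. For diabetes, the 17 genes of mitochondrial DNA transcription and replication had a median of 0.01, with 9 above 0, and the 28 of RNA processing and stability had 0.05, with 21 above 0. For the knockout the medians were -0.05 and 0.00302. limma called 0 in both comparisons, with 3 and 2 genes at an unadjusted p under 0.05 for diabetes and 1 and 1 for the knockout. Twnk, the helicase that unwinds mitochondrial DNA, had the smallest adjusted p of the first list for diabetes (0.0706 by limma, log2 change 0.31, SE 0.09), and is named after its values were seen. Among 8 abundant nuclear noncoding RNAs, 1 was called for diabetes, Neat1, the scaffold of nuclear paraspeckles, which averaged 333 ± 131 TPM in Akita and 546 ± 210 TPM in nondiabetic libraries (SD, n = 23 and 24; log2 change -0.70, adjusted p = 0.0164 by limma). Regulators of mitochondrial biogenesis (14 genes) had medians of 0.02 for diabetes and -0.00927 for the knockout, and the 11 genes of the mitochondrial stress response 0.07 and -0.11. limma called 0 in each, with 1 and 3 genes at an unadjusted p under 0.05 for diabetes and 1 and 1 for the knockout.

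Among libraries most of the mRNAs varied together. For the 8 mRNAs without a near-complete copy, the 28 pairwise correlations of log2 TPM over 52 libraries had a median r of 0.92. The highest was 0.98 for mt-Nd4, of complex I, with mt-Cytb, and the lowest 0.61 for mt-Nd5 with mt-Nd6. mt-Nd6, from the other strand, had r = 0.68 with the sum of the other 7. Each of those 7, taken in the same way against the sum without itself, had r between 0.92 and 0.98. All values of a library share its scale, so these are descriptions.

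The summed mRNAs followed the summed rRNAs over libraries. On log2 values Pearson's r was 0.78 and Spearman's rho 0.78 (permutation p = 1e-05 each, the smallest that 100000 resamples can give, adjusted p = 3e-05 over 6 relations). r was 0.76 without the 2 libraries farthest from the median rRNA, 0.77 for residuals from the group means, and 0.70 with nuclear genes scaled to 1000000. Within the 7 groups of 6 libraries r lay between 0.16 and 0.93. Against the summed nuclear genes of complexes I to IV and the ATP synthase, r was 0.74 and rho 0.72 (permutation p = 1e-05, adjusted p = 3e-05). This r was 0.72 without the 2 farthest libraries, 0.71 for residuals, and 0.61 with nuclear genes scaled to 1000000. It was positive in 6 of 7 groups of 6, with a lowest r of -0.04. All these sums share the scale of their library, and scaling by nuclear genes divided both sums of a relation by the same value. The permutation p-values therefore cannot separate a relation between the transcripts from that shared scale.

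**Figure D5:**
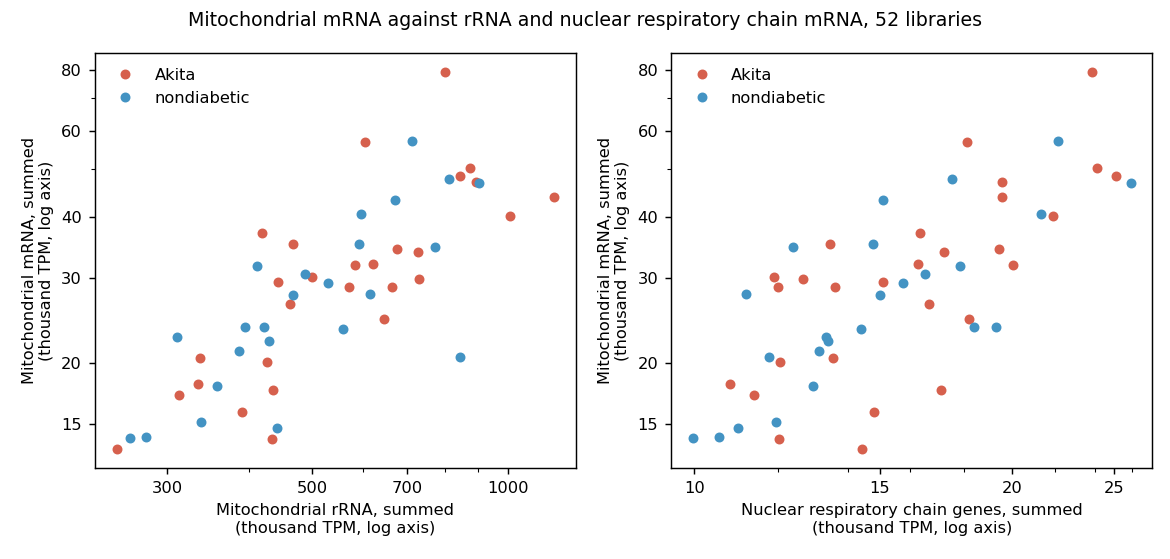
Summed TPM (divided by 1000, log axes) of the 13 mitochondrial mRNAs against the summed mitochondrial rRNAs (left) and the summed nuclear genes of the respiratory chain and ATP synthase (right), each point 1 of 52 libraries, Akita in red and nondiabetic in blue. Both relations are positive, with r of 0.78 on the left and 0.74 on the right, and Akita and nondiabetic libraries lie along the same band.

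The nuclear genes most like the mRNA sum, by Spearman's rho over 52 libraries, were Gm28438, the copy of mt-Nd3 (0.88), Cox6b1, a nuclear subunit of complex IV (0.87), Sec61b, of the channel for protein entry into the endoplasmic reticulum (0.82), Rpl17, of the cytosolic ribosome (0.81), and Ndufa4, a subunit of complex IV (0.80). By list, the median rho was 0.74 for nuclear complex IV, 0.67 for the ATP synthase, 0.66 for complex I, 0.65 for complex II and 0.65 for complex III. All 36 genes of complex I and all 11 of complex IV were above 0. The median was 0.19 for transcription and replication of mitochondrial DNA, 0.09 for RNA processing, -0.06 for biogenesis regulators and -0.01 over all other tested genes.

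The score of other cell types ran weakly against the members. r was -0.30 for the mRNA sum (rho -0.27, permutation p = 0.0305, adjusted p = 0.0611) and -0.25 for the rRNA sum (rho -0.21, adjusted p = 0.0915). Without the 2 farthest libraries these were -0.26 and -0.20, and for residuals from the group means -0.28 and -0.22. With nuclear genes scaled to 1000000 they were -0.15 (adjusted p = 0.434) and -0.06 (adjusted p = 0.797). Within groups of 6, r with the mRNA sum was positive in 2 of 7 and lay between -0.92 and 0.49. For the mRNAs without a near-complete copy r was -0.32 (adjusted p = 0.0423), an alternative chosen after seeing the data. Markers of the thick ascending limb had a median rho of -0.39 with the mRNA sum, endothelial markers -0.30, red blood cell markers -0.22 and stromal markers -0.19. The median was nearer 0 for macrophage and dendritic cell markers (-0.09), podocyte markers (-0.06) and those of the distal tubule and collecting duct (-0.06). With the library number of the labels r was -0.10 for mRNA and -0.25 for rRNA (adjusted p = 0.490 and 0.0915).

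Ratios within a library do not depend on how libraries were scaled. The ratio of summed rRNA to summed mRNA had a median of 18.4 in Akita and 18.2 in nondiabetic libraries, and of 17.4 in KO and 19.3 in WT libraries on vehicle or dapagliflozin. Over all 52 libraries it ranged between 10.1 and 41.1. The ratio of mt-Rnr1 to mt-Rnr2, which lie next to each other with mt-Tv between them, had a median of 0.610 in Akita and 0.451 in nondiabetic libraries, and of 0.446 in KO and 0.610 in WT libraries. Its range over single libraries was 0.247 to 1.21, nearly as wide in each of these sets. The ratio of mt-Nd6 to mt-Cytb, across the strands, had a median of 0.283 in Akita and 0.316 in nondiabetic libraries, and of 0.277 in KO and 0.306 in WT libraries. No test was made of these ratios.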

How the data were processed

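Poly(A)-independent stranded libraries were made from 0.5 ng of total RNA of 70 to 80 cut tubules per sample, per the labels' protocols. The authors deposited one table of log10 TPM for 19068 genes and 52 libraries, and 2 of the 54 labelled samples, one Akita WT dapagliflozin and one Akita WT semaglutide, were not analysed here. The build was GRCm38, per the submitters' processing notes. Aligner, quantifier, treatment of reads that fit several genes, and scaling between libraries are not stated in any source used. The deposited TPM summed to more than 1000000 in 51 of 52 libraries (coefficient of variation 20.6%), while the geometric mean of the 13255 genes present in all libraries varied by 2.51%, so the values had been scaled between libraries. Depth is unknown. Kits of this type remove ribosomal cDNA with probes, and how far that touched mitochondrial rRNA was not tested.

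Blank values were set to 0 TPM. Changes are on the log2(TPM + 1) scale, which understates those of genes low in all libraries. For genes high in some libraries and at 0 in others, the libraries at 0 weigh heavily on this scale. For example, mt-Nd4l averaged 812 TPM in Akita and 638 TPM in nondiabetic libraries, while its averaged change with diabetes was -0.32. Genes with a mean TPM of at least 1 (15424) were fitted with limma 3.58.1 in R 4.3.3 as 9 group means over all libraries, with trended and robust variance moderation, and p-values were adjusted by Benjamini-Hochberg over all genes, with a threshold of 0.05, in 21 comparisons. The fit was tried on the same libraries shuffled over groups, with known folds put into genes other than the members. That was done for the averaged diabetes comparison only, and its results are not given here. Averaged comparisons leave out semaglutide. Correlations used 100000 permutations in SciPy 1.17.1 (Python 3.11.15, NumPy 2.4.6, pandas 2.3.3), and figures Matplotlib 3.10.9. Nuclear copies were found with BLASTN 2.17.0 among GENCODE M21 transcripts, from which positions were also taken.

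All 18 members are named with values. Of each other list, genes called in a main comparison are named, and of nuclear genes the 5 with the highest rho with the mRNA sum. Alternatives changed the pseudocount, filter, scaling, weights, covariates and libraries. Sums with copies, the scaling of nuclear genes in correlations and the fit without 3 libraries were chosen after seeing the data. Members and lists were chosen with earlier results of these data known.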

Additional observations from a re-analysis of the deposited data

Results flagged for a closer look

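Single libraries far from the rest of their group were found in 26 of 198 groups of values tested, or 13.1%. A chance rate of about 1 in 20 would hold only for independent values with a normal spread. The values were TPM without logs, shares and ratios, and many came from the same libraries, so that rate cannot serve as a yardstick. All 26 were the highest library of their group. The flags therefore cannot tell an unusual library from values with a long upper tail.

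Replicate 4 of Akita WT semaglutide stood out in several measures, with 593256 TPM of mt-Rnr1 (the next of its group had 221765), 54.1 TPM of mt-Nd3, an rRNA to mRNA ratio of 26.9 and an mt-Rnr1 to mt-Rnr2 ratio of 1.01. Replicate 3 of nondiabetic KO vehicle had 241006 TPM of mt-Rnr1, an mt-Rnr1 to mt-Rnr2 ratio of 0.836 and 2047 TPM of mt-Nd6. Replicate 5 of nondiabetic WT vehicle had 10703 TPM of mt-Co1, 3423 TPM of mt-Co3 and 45.0 TPM of mt-Tv. Replicate 4 of Akita KO vehicle had 4.38% of its TPM in mitochondrial mRNA, where the next had 2.31%, and 5790 TPM of mt-Nd5.

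Other high ratios of rRNA to mRNA were 41.1 in replicate 2 of nondiabetic WT dapagliflozin and 29.9 in replicate 1 of nondiabetic KO vehicle. Replicate 1 of nondiabetic KO dapagliflozin had 3429 TPM of mt-Atp8, replicate 1 of Akita WT dapagliflozin 1099.98 TPM of mt-Nd4l, and replicate 4 of Akita KO dapagliflozin 59.2 TPM of mt-Nd3.

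Among the tRNAs, mt-Tv reached 110 TPM in replicate 2 of Akita KO dapagliflozin, 50.2 TPM in replicate 5 of Akita KO vehicle and 20.4 TPM in replicate 2 of Akita WT semaglutide. mt-Tg reached 179.98 TPM in that same Akita KO dapagliflozin library, 186 TPM in replicate 4 of nondiabetic KO vehicle and 208 TPM in replicate 5 of nondiabetic WT dapagliflozin. mt-Tp reached 134 TPM in that nondiabetic WT dapagliflozin library, 147 TPM in replicate 3 of Akita WT semaglutide and 30.3 TPM in replicate 6 of Akita WT dapagliflozin.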

How the results depend on the processing

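limma called 0 members in each of the 5 main comparisons under every setting run, and the smallest adjusted p over members and settings was 0.112 (mt-Co2, diabetes in WT vehicle, without nondiabetic WT vehicle replicate 5). No paired analysis was possible because the labels carry no replicate numbers; those printed only name libraries in record order. Of 90 member changes, these changed sign; the cause was not tested except where summing with a copy or scaling names it. For diabetes averaged, mt-Rnr2 gave -0.018 with all genes scaled to 1000000, mt-Nd6 -0.036 with the other-cell score as covariate, mt-Nd3 -0.000367 without the 3 libraries highest in that score, and mt-Nd4l 0.022 summed with its copy. For the knockout, scaling all genes gave mt-Co1 0.062, mt-Co2 0.16, mt-Nd2 0.031, mt-Nd4 0.047 and mt-Nd5 0.027, mt-Co2 was 0.049 with nuclear genes scaled and 0.019 without the 3 libraries, mt-Nd3 -0.023 with array weights, mt-Nd3 and mt-Nd4l -0.23 and -0.20 summed with copies, and mt-Tv 0.049 with library number as a covariate. For dapagliflozin, mt-Nd4l was 0.23 and mt-Nd6 0.00617 with array weights, and mt-Nd4l 0.018 summed with its copy. For semaglutide mt-Nd3 was -0.61 summed with its copy, and for diabetes in WT vehicle mt-Nd5 was -0.00560 with all genes scaled.

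Leaving out 1 library at a time changed the sign of 11 changes, of which 2 of mt-Nd4l were not near 0 (-0.32 for diabetes and 0.37 for the knockout). The ranges were -0.73 to 0.11 for mt-Nd4l in diabetes, and in the knockout -0.23 to 0.053 for mt-Co2, -0.14 to 0.24 for mt-Nd3, -0.058 to 0.78 for mt-Nd4l and -0.35 to 0.068 for mt-Tv. For dapagliflozin they were -0.10 to 0.011 for mt-Co1, -0.22 to 0.057 for mt-Co2, -0.074 to 0.027 for mt-Nd5, -0.14 to 0.012 for mt-Nd6, -0.10 to 0.041 for mt-Rnr1 and -0.0095 to 0.042 for mt-Rnr2. Without a change of sign, mt-Co2 ranged between 0.51 and 1.62 for diabetes in WT vehicle, mt-Nd4l between -1.19 and -0.35 for dapagliflozin, and mt-Rnr1 between -1.29 and -0.52 for semaglutide. Members at an unadjusted p under 0.05 numbered 0 to 5 over the other settings for diabetes in WT vehicle (4 as reported), 2 to 5 for the knockout (4), 0 to 1 for dapagliflozin (1) and 1 to 6 for semaglutide (2).

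Over libraries, the mRNA sum against library number had r = 0.045 for residuals, against -0.10 as reported, and r with the score of other cell types was -0.32 (adjusted p = 0.0423) over mRNAs without a near-complete copy. The mean rRNA sum was 351663 TPM with all genes scaled, against 562064 TPM as deposited. Counts over all genes moved by more than 1.5 times in several settings. They were 149 for diabetes, against 53 with all genes scaled, 72 with nuclear genes scaled, 77 with the score, 78 without the 3 libraries and 304 with library number. For the knockout they were 8, against 169 with all genes scaled, 19 with array weights, 19 with the score and 14 without the 3 libraries. For diabetes in WT vehicle they were 60, against 34 with only the groups compared, 38 with nuclear genes scaled and 143 with library number. Semaglutide had 0, against 12 with array weights, 2 with library number and 1 without the 3 libraries. Depth is unknown, and members with libraries at 0 have the widest intervals.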
